A study of Mus musculus with 18 samples.

Results

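Glycolysis and hypoxia response genes were followed through 18 RNA sequencing libraries of mouse bone marrow derived macrophages. The members were a list of 37 gene symbols matched to the symbol column of the deposited table, and 36 of its 16474 genes matched. Pkm2 had no row of its own, since it is an older name of the gene listed as Pkm. Hk1, Hk2, Hk3, Gpi1, Pfkl, Pfkm, Pfkp, Pfkfb3, Pfkfb4, Aldoa, Aldoc, Tpi1, Gapdh, Pgk1, Pgam1, Eno1, Eno2, Pkm and Ldha act in glycolysis. Slc2a1, Slc2a3, Slc16a1 and Slc16a3 carry glucose or lactate, and Pdk1 encodes a pyruvate dehydrogenase kinase. Hif1a, Epas1, Egln1 and Egln3 belong to oxygen sensing, and Bnip3, Ero1l, P4ha1, P4ha2, Adm, Ndrg1, Ankrd37 and Higd1a are known as hypoxia-responsive genes.

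All mice were C57BL/6 and 8 weeks old, and their marrow spent 6 days with M-CSF at 50 ng/ml, which turns precursors into macrophages. WT and p110g-/- cells were compared, the latter lacking p110g, the catalytic subunit of PI3K gamma encoded by Pik3cg. M-CSF was then kept at 20 ng/ml in every culture. It was given alone or together with IFNg and LPS (100 ng/ml of LPS), both for 24 h, or together with IL-4 at 20 ng/ml, for 48 h. The 6 resulting groups held 3 libraries apiece, numbered 1 to 3, and the sources used here do not say whether the numbers stand for separate mice or cultures, so p-values measure the spread between these libraries, which may be technical. IL-4 and M-CSF groups differ in time as well as stimulus, and the effects of time and IL-4 cannot be told apart.

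Values are normalised signal, that is reads per gene scaled by a factor for the library, whose depth was 40.1 to 69.6 M reads. Total signal was 45.7 to 46.6 M in WT M-CSF, 64.2 to 67.6 M in WT IFNg/LPS and 47.6 to 49.7 M in WT IL-4. In p110g-/- cells it was 46.1 to 47.4 M, 60.8 to 62.7 M and 47.3 to 48.9 M. Rises with IFNg/LPS would thus be smaller as a share of total signal. Log2 fold changes are differences of group means of log2(signal + 1), given with the standard error (SE), and a gene was called where the limma p-value, adjusted over 15627 genes by Benjamini-Hochberg, was under 0.05. Of the macrophage markers 8 of 9 were in the table and summed to 450218 or more in every library, with Lyz2 the most abundant. Their sums were 883966 to 1044320 in WT M-CSF, 643541 to 706599 in WT IFNg/LPS and 501406 to 553576 in WT IL-4. In p110g-/- cells they were 931806 to 965882, 589905 to 690110 and 450218 to 533985. With IL-4 in WT 7 of the 8 were called lower and none higher, against 43.9% of all genes called. Between genotypes under IFNg/LPS 2 were higher and 3 lower, against 14.7%. Pik3cg itself was lower in p110g-/- cells in M-CSF (-1.41 ± 0.23, limma adjusted p = 0.0027) and in IL-4 (-1.63 ± 0.23, adjusted p = 0.00063), but in IFNg/LPS the difference of -0.34 ± 0.23 was not called (limma adjusted p = 0.37). Of the 6 IFNg/LPS libraries the highest was the one labelled p110g-/- IFNg/LPS 1, since Pik3cg held 3691, 1411 and 2037 in p110g-/- and 3559.5, 2309 and 2604 in WT. Where the deletion lies within the transcript is not given in the sources used here, so Pik3cg signal does not by itself show a wrong label, and each member called between genotypes under IFNg/LPS, with the block or not, is also given without that library.

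Markers of other cell types also moved with the groups, and the part of any marker list in the results was not tested. The 8 neutrophil markers summed to 3129 to 12035 in WT M-CSF, 4810 to 12648 in p110g-/- M-CSF, 794 to 1386 in WT IFNg/LPS, 357.0 to 798 in p110g-/- IFNg/LPS, 2640 to 12235 in WT IL-4 and 2674 to 5643 in p110g-/- IL-4. With IFNg/LPS 5 of the 8 fell and 2 rose in WT (Cxcr2 and Ly6g), and 6 fell and 1 rose in p110g-/- cells (Ly6g). Of all genes 73.8% were called in WT and 73.0% in p110g-/- cells. Elane was at 0 in all 6 IFNg/LPS libraries, and Ly6g went from a mean of 0.87 to 17 signal in WT. The 4 fibroblast markers summed to 360 to 2385 in WT M-CSF, 1503 to 3503 in p110g-/- M-CSF, 90.5 to 164 in WT IFNg/LPS, 167 to 284 in p110g-/- IFNg/LPS, 196 to 1034 in WT IL-4 and 710 to 1312 in p110g-/- IL-4. The 5 dendritic cell markers summed to 179 to 197 in WT M-CSF, 243 to 341 in p110g-/- M-CSF, 579.6 to 1007 in WT IFNg/LPS, 697 to 763 in p110g-/- IFNg/LPS, 149.9 to 238 in WT IL-4 and 188 to 225 in p110g-/- IL-4. Most of the IFNg/LPS sums was Xcr1, which held 60.7, 62 and 68.2 in WT M-CSF and 948, 794 and 561 in WT IFNg/LPS, while Cd209a was at 0 in every IFNg/LPS library. The B cell (4 of 4 in the table), T and NK cell (2 of 5) and mast cell (2 of 3) lists summed to 617 at most, and no erythroid marker of 3 was in the table. In such bulk libraries fewer cells of a type and less RNA per cell cannot be told apart.

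Glycolysis splits glucose into pyruvate in the cytosol, and lactate dehydrogenase turns pyruvate into lactate, which leaves the cell through monocarboxylate carriers. HIF-1 and HIF-2 are transcription factors whose alpha subunits, encoded by Hif1a and Epas1, are marked for degradation by prolyl hydroxylases of the EGLN family while oxygen is present. HIF binds hypoxia response elements and is known to drive many glycolytic genes, and macrophages exposed to LPS and IFNg are known for high aerobic glycolysis.

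The core of the hypoxia response element, ACGTG or GCGTG on either strand, was searched in RefSeq promoter windows of GRCm38.p6, each reaching from 250 bases before to 50 bases after a start. A palindromic CACGTG, the E-box that MYC and USF proteins are known to bind, holds the core on both strands and was counted once. A total of 33 members had 46 windows (no entry matched Epas1, Ndrg1 or Slc2a3), and 38 of these windows (82.6%) held a core, against 58.3% of the 15112 windows that matched 12020 of the 16474 genes in the table and 43.8% of all 32851 windows. At least 2 cores stood in 63.0% of member windows, against 27.7% and 17.5%. Member windows also had more CpG and GC, with a median of 21 CpG and 64% GC against 19 and 59.7% for the matched genes and 7 and 52.7% for all windows. A match is a description of letters and not a binding site. The deposited signals were counted on another build, mm9, and no coordinates of that build are used. Shown are the 250 bases before the start, 5′ to 3′ on the gene's strand, with the core letters in capitals, for 5 genes that rose with IFNg/LPS and for Eno2, which fell and has no core there. They were chosen for display, and whether a core goes with direction was not tested. The only window of Pfkfb4 and 3 of the 4 windows of Pfkm, which also fell, hold one.
Slc2a1 (chr4:119108495-119108744, plus strand, 2 cores): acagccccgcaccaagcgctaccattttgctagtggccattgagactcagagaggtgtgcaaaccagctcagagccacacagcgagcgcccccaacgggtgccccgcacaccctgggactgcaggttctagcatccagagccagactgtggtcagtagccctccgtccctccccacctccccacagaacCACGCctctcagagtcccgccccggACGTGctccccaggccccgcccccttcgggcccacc
Slc16a3 (chr11:120948817-120949066, plus strand, 2 cores): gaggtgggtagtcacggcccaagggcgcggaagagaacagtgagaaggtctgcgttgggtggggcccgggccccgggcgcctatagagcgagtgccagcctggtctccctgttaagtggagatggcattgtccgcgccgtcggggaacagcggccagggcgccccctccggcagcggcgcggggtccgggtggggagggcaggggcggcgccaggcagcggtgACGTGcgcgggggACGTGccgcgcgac
Pgk1 (chrX:106186850-106187099, plus strand, 2 cores): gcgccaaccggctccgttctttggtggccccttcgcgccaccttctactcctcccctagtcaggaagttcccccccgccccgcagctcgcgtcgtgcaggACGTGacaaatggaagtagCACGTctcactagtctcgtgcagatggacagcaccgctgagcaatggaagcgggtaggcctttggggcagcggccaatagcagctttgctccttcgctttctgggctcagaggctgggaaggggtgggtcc
Ldha (chr7:46845554-46845803, plus strand, 3 cores, of which 2 are E-boxes): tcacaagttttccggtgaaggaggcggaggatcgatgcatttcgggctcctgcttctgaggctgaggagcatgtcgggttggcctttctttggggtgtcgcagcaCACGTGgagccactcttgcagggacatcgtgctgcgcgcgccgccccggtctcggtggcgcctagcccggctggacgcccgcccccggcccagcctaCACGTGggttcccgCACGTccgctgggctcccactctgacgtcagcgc
Bnip3 (chr7:138909507-138909756, minus strand, 4 cores, of which 1 is an E-box): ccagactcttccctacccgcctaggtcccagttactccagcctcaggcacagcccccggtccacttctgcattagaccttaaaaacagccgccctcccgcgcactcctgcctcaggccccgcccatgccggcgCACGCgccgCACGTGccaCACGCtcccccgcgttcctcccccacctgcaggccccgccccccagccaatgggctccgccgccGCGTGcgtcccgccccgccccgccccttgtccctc
Eno2 (chr6:124769674-124769923, minus strand, no core): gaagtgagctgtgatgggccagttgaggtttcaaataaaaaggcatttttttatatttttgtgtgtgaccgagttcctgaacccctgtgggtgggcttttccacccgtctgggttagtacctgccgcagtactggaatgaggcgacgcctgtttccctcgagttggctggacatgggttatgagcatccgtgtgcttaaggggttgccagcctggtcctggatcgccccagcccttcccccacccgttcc
No core stood in at least 1 window of Aldoa, Eno2, Gpi1, Hk1, Pdk1, Pfkm, Pkm and Tpi1. Of the genes whose only window held none, Gpi1 and Tpi1 rose and Eno2 fell with IFNg/LPS.

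IFNg/LPS raised most of the pathway. In WT cells 27 of the 36 members rose and 4 fell (Pfkm, Pfkfb4, Eno2 and Epas1), and in p110g-/- cells 28 rose and the 4 that fell were again these. Every member passed the filter on low values, Adm only through its IFNg/LPS libraries. The background was high, since 73.8% of all genes were called in WT (36.3% higher, 37.5% lower) and 73.0% in p110g-/- cells (36.2% higher, 36.8% lower), so the number called is to be read against those shares. The median log2 fold change of the members was 2.04 in WT and 2.33 in p110g-/- cells, against -0.0060 and -0.0093 over all genes tested. All-gene medians depend on how libraries were scaled and were small in every comparison. Here and below they only mark the reference point of that scaling. Aldoc, Slc2a3, Slc16a1 and Ndrg1 passed in neither genotype, and Pdk1 passed in p110g-/- cells alone (0.70 ± 0.19), with 0.40 ± 0.19 in WT. That difference between genotypes was 0.30 ± 0.27 and did not pass (limma adjusted p = 0.62).

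**Figure D1:**
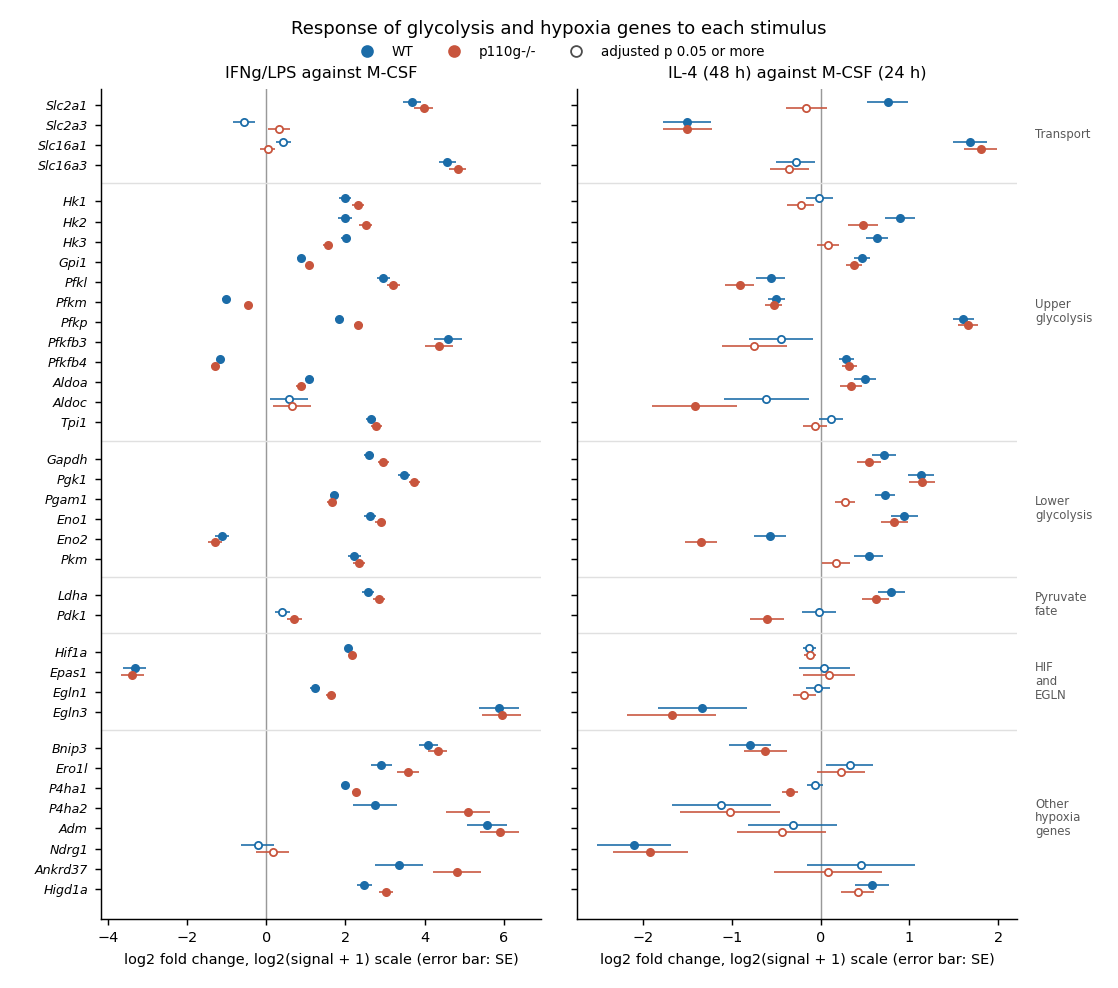
Log2 fold changes (x axis, log2(signal + 1) scale, bar: SE) of the 36 members, grouped by role, for IFNg/LPS against M-CSF and IL-4 against M-CSF in WT (blue) and p110g-/- cells (red). Filled points had an adjusted p under 0.05. Most members lie right of 0 under IFNg/LPS, with Epas1 near -3.3 in both genotypes, and fall on both sides of 0 under IL-4.

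Among the carriers, Slc16a3, the lactate exporter MCT4, held 1797, 1283 and 1271 in the WT M-CSF libraries and 46621, 30107 and 28147 in the WT IFNg/LPS libraries. The groups did not overlap, and the log2 fold change was 4.57 ± 0.22, with 4.83 ± 0.22 in p110g-/- cells. Slc2a1, the glucose carrier GLUT1, held 1424, 1892 and 1624 in WT M-CSF and 28594, 18479.7 and 17291 in WT IFNg/LPS. Again the groups did not overlap, and Slc2a1 rose by 3.68 ± 0.23 in WT and by 3.97 ± 0.23 in p110g-/- cells. The other pair of carriers did not pass. Slc2a3, the glucose carrier GLUT3, held 498, 373 and 352 in WT M-CSF and 317, 257 and 248 in WT IFNg/LPS, a difference of -0.56 ± 0.27 (limma adjusted p = 0.074). With the library number as a block in the limma fit it passed as lower in WT (adjusted p = 0.00073) and as higher in p110g-/- cells (0.32, adjusted p = 0.028). Without the library labelled p110g-/- IFNg/LPS 1 and without the block, the p110g-/- difference was -0.0032 (limma adjusted p = 0.99), and with libraries 2 and 3 only it was 0.14 (adjusted p = 0.27). Slc16a1, the monocarboxylate carrier MCT1, held 525, 689 and 721 in WT M-CSF and 1116, 819.8 and 701 in WT IFNg/LPS, and the groups overlapped.

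In upper glycolysis the log2 fold change was largest for Pfkfb3, which makes fructose 2,6-bisphosphate, the activator of phosphofructokinase. It held 3489, 2499.6 and 2584 in WT M-CSF and 128279, 50886 and 48732 in WT IFNg/LPS, a log2 fold change of 4.59 ± 0.36, with library 1 well above the other two. In p110g-/- cells Pfkfb3 rose by 4.36 ± 0.36. Its paralog Pfkfb4 went the other way, from a mean of 3134 ± 195 to 1390.4 ± 102 signal in WT (SD, n = 3), a log2 fold change of -1.17 ± 0.083, and -1.31 ± 0.083 in p110g-/- cells.

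The phosphofructokinases, which commit glucose to glycolysis, also split. The liver isoform Pfkl held 1318, 1545 and 1527 in WT M-CSF and 14111, 10095 and 10145 in WT IFNg/LPS, a rise of 2.95 ± 0.16. The platelet isoform Pfkp went from 3618, 3697 and 3713 to 16164, 12625 and 11364, a rise of 1.85 ± 0.12. The muscle isoform Pfkm went the other way, from 665, 643 and 665 to 279, 332 and 365, a log2 fold change of -1.02 ± 0.10. The 3 hexokinases, which trap glucose in the cell, rose to a similar degree in WT. Hk1 went from 3849, 3597 and 3820.1 to 19504, 13115 and 13087, a log2 fold change of 1.99 ± 0.15. Hk2 went from 1639, 1373 and 1472 to 7101, 5225 and 5534, a log2 fold change of 1.98 ± 0.17. Hk3, the hexokinase typical of myeloid cells, went from 15587, 20639.9 and 20684 to 73432, 75051 and 77861, a log2 fold change of 2.00 ± 0.12.

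Tpi1, triose phosphate isomerase, went from 8319, 9705 and 8954 to 65616, 50553 and 53201 in WT, a rise of 2.64 ± 0.13. Gpi1, glucose phosphate isomerase, rose by 0.86 ± 0.088, from a mean of 14590 ± 1011 to 26548 ± 1349 signal (SD, n = 3). Aldoa, an aldolase, rose by 1.09 ± 0.12, from 38431 ± 672 to 82179 ± 10953 signal (SD, n = 3). Neither gene had groups that overlapped. Aldoc, another aldolase, stood at 381 ± 190.0 and 571 ± 286 signal (SD, n = 3) and its groups overlapped. It passed as higher with the block (limma adjusted p = 0.0059 in WT and 0.0031 in p110g-/- cells).

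Lower glycolysis, the steps that return ATP, rose together except for Eno2. Pgk1, phosphoglycerate kinase, held 12136, 14453 and 11290.3 in WT M-CSF and 172128, 127960 and 126124 in WT IFNg/LPS, a log2 fold change of 3.48 ± 0.14. Eno1, the common enolase, went from 8830.4, 11497 and 9802 to 73798, 54999 and 56928, a rise of 2.62 ± 0.15. Gapdh, often taken as a reference gene, went from 8257, 9857 and 7853 to 59411, 48691 and 48466, a rise of 2.59 ± 0.13. For each of them every IFNg/LPS library lay above every M-CSF library. Pgam1, phosphoglycerate mutase, rose by 1.72 ± 0.11, from 19155 ± 2439.7 to 62683 ± 492 signal (SD, n = 3). Pkm, pyruvate kinase, rose by 2.22 ± 0.16, from 55638 ± 2585 to 260390 ± 20671 signal (SD, n = 3). Eno2, the neuronal enolase, changed by -1.11 ± 0.18, from 836 ± 98.4 to 387 ± 57.5 signal (SD, n = 3). Lower glycolysis thus held 1 gene that fell among 5 that rose. Ldha, which makes lactate, held 17249.8, 22767 and 20871 in WT M-CSF and 147306, 113100 and 103837 in WT IFNg/LPS, a rise of 2.57 ± 0.15. Pdk1, the pyruvate dehydrogenase kinase, moved from 2486 ± 581 to 3251 ± 491 signal (SD, n = 3), a difference that did not pass. In p110g-/- cells the rises were 3.74 ± 0.14 for Pgk1, 2.89 ± 0.15 for Eno1, 2.95 ± 0.13 for Gapdh and 2.84 ± 0.15 for Ldha. Gapdh, Pgk1, Ldha, Eno1, Aldoa, Tpi1, Pgam1 and Pkm have processed pseudogene copies in the mouse genome, and how shared reads were assigned is not given in the sources used here, so their exact levels are uncertain.

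The HIF alpha genes moved in opposite directions. Hif1a held 5169, 4505 and 4495 in WT M-CSF and 21847, 19463 and 18189 in WT IFNg/LPS, a rise of 2.07 ± 0.070. Epas1 went from 204, 396 and 341 to 35.4, 31.7 and 22.1, a log2 fold change of -3.33 ± 0.29. The p110g-/- values were 2.17 ± 0.070 for Hif1a and -3.39 ± 0.29 for Epas1. Both prolyl hydroxylases, themselves known HIF targets, rose. Egln3 held 36.9, 22.7 and 23.8 in WT M-CSF and 2663, 1299.7 and 1301 in WT IFNg/LPS, a log2 fold change of 5.88 ± 0.50, the largest of the 36 members. Egln1, the main oxygen sensor of the family, rose by 1.23 ± 0.13, from 1879, 1984 and 2216 to 5159.8, 4459 and 4629.

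Of the other hypoxia genes 7 of 8 rose in both genotypes. Adm, the secreted peptide adrenomedullin, was close to absent in M-CSF, at 3.8, 7.9 and 3.2 signal in WT (5, 9 and 3 reads), and held 415, 274 and 171 in WT IFNg/LPS. Its fitted rise of 5.58 ± 0.50 depends on the pseudocount and ranged from 4.23 to 5.91 over the alternatives. Bnip3, a mitophagy receptor, went from 1387, 1428 and 1475 to 37375, 21238 and 18397, a rise of 4.09 ± 0.24. Ankrd37, an ankyrin repeat gene, went from 33, 166 and 102 to 1366, 639.6 and 717, a rise of 3.36 ± 0.61. Its libraries were widely scattered in M-CSF already. Ero1l, the disulfide-forming oxidase of the endoplasmic reticulum, rose by 2.91 ± 0.27, from 2610.2 ± 247 to 20411 ± 7533 signal (SD, n = 3). P4ha1, a collagen prolyl hydroxylase subunit, went from 3339, 3186 and 3356 to 14597, 12116 and 12457, a rise of 1.98 ± 0.090. Its relative P4ha2 went from 450.2, 134 and 187 to 2916, 1111 and 1052, a rise of 2.74 ± 0.56. In neither did the groups overlap. Higd1a, a mitochondrial protein gene, rose by 2.48 ± 0.19, from 582 ± 15.3 to 3327 ± 964 signal (SD, n = 3). Ndrg1, a stress and differentiation gene, was the exception. It held 7699, 4731 and 5759.9 in WT M-CSF and 8978, 4106 and 3618 in WT IFNg/LPS, groups that overlapped, and its difference turned from -0.22 ± 0.42 to 0.031 without WT IFNg/LPS library 3.

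IL-4 split the pathway. In WT cells 15 members rose and 7 fell, where 43.9% of all genes were called (22.9% higher, 21.1% lower), and the median of the members was 0.08 on the log2 scale. In p110g-/- cells 10 rose and 10 fell, again with 43.9% of all genes called (22.7% higher, 21.2% lower) and a member median of -0.09. The IL-4 and IFNg/LPS comparisons share their M-CSF libraries, and the interaction of genotype and IL-4 was called for none of the 36 members.

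Slc16a1, which had not passed under IFNg/LPS, had the largest rise with IL-4. It went from 525, 689 and 721 in WT M-CSF to 1937, 2111 and 2123 in WT IL-4, a log2 fold change of 1.68 ± 0.19. Pfkp rose by 1.61 ± 0.12 in WT, from 3618, 3697 and 3713 to 11039.7, 11072 and 11497. The other phosphofructokinases fell. Pfkl changed by -0.56 ± 0.16, to 826, 1063 and 1106, a limma call lost without WT IL-4 library 1 (adjusted p = 0.059). Pfkm changed by -0.50 ± 0.10, to 458, 440.4 and 499. Enzymes of lower glycolysis rose too. Pgk1 reached 26103, 28150.1 and 28149.9 in WT IL-4, a rise of 1.13 ± 0.14. Eno1 reached 16743, 20299 and 20743, a rise of 0.94 ± 0.15, and Ldha 30468, 38262 and 36907, a rise of 0.80 ± 0.15. Hk2 rose by 0.89 ± 0.17 in WT, to 3012, 2517 and 2786, and Hk3 by 0.64 ± 0.12, to 32346, 28232 and 27414. Hk1 did not pass, at -0.018 ± 0.15. Slc2a1 rose by 0.75 ± 0.23 in WT to 2663, 2806 and 2816, a limma call lost without WT M-CSF library 1 (adjusted p = 0.058), and stood at -0.16 ± 0.23 in p110g-/- cells. Gapdh, Pgam1, Pkm, Aldoa, Gpi1, Higd1a and Pfkfb4 also rose in WT, by 0.29 (Pfkfb4) to 0.72 (Pgam1) on the log2 scale. The Higd1a call ended without WT M-CSF library 3 or WT IL-4 library 2 or 3, and that of Pfkfb4 without WT IL-4 library 3.

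Members that fell with IL-4 in WT were led by Ndrg1. It went from 7699, 4731 and 5759.9 to 1990.1, 1085 and 1229.8, a log2 fold change of -2.10 ± 0.42, and the p110g-/- value was -1.92 ± 0.42. Slc2a3 went to 199, 119 and 118, a log2 fold change of -1.51 ± 0.27. Bnip3 went to 801, 853 and 816, a log2 fold change of -0.80 ± 0.24. These WT groups did not overlap with M-CSF. Eno2 changed by -0.57 ± 0.18, but the call ended without WT M-CSF library 2 or 3 or WT IL-4 library 2 or 3 (limma adjusted p of 0.055 to 0.079). Egln3 changed by -1.33 ± 0.50, to 21.4, 5.8 and 8.2 signal, with a limma adjusted p of 0.041 that passed in 5 of 14 alternatives (range 7.0e-05 to 0.18). That call ended without any of WT M-CSF libraries 1, 2 and 3 or WT IL-4 libraries 2 and 3. Hif1a and Epas1 did not pass with IL-4, at -0.13 ± 0.070 and 0.043 ± 0.29 in WT.

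In p110g-/- cells Aldoc (-1.42 ± 0.48), Pdk1 (-0.61 ± 0.19) and P4ha1 (-0.34 ± 0.090) fell with IL-4 without having passed in WT, and Pgam1, Pkm, Hk3, Higd1a and Slc2a1 passed as higher in WT but not in p110g-/- cells. None of these differences between genotypes passed as an interaction. Several p110g-/- calls ended without a single library. These were Aldoa (p110g-/- M-CSF 2 or 3, p110g-/- IL-4 1 or 3), Aldoc (M-CSF 1, IL-4 2 or 3), Hk2 (M-CSF 2 or 3, IL-4 1), Pdk1 (M-CSF 2 or 3, IL-4 3), Egln3 (M-CSF 1) and Bnip3 (any of the 6 libraries). With the block, limma added Higd1a (0.42, adjusted p = 0.049), Pfkfb3 (-0.74, 0.010) and P4ha2 (-1.02, 0.0012) in p110g-/- cells. In WT it added Aldoc (-0.61, adjusted p = 0.0081) and P4ha2 (-1.12, 0.00065).

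Isozyme make-up can be compared only per transcript length, and is given as each gene's share of the family's summed signal per kb of a GENCODE transcript, with no test. Pfkp made up 58.8% ± 0.92 of phosphofructokinase signal per kb in WT M-CSF, 50.4% ± 1.44 in WT IFNg/LPS and 86.3% ± 1.05 in WT IL-4 (SD, n = 3). Pfkl took 26.0% ± 1.52, 47.8% ± 1.46 and 8.52% ± 1.08 in the same groups, and Pfkm 15.2% ± 0.63, 1.83% ± 0.52 and 5.16% ± 0.22. The ranges of each isoform did not overlap between the 3 WT groups. Among hexokinases Hk3 held 82.3% ± 3.00 in WT M-CSF, 82.4% ± 3.59 in WT IFNg/LPS and 86.1% ± 1.11 in WT IL-4. Its M-CSF and IFNg/LPS shares overlapped although all 3 genes rose. Pfkfb3 went from 40.5% ± 3.07 of the Pfkfb3 and Pfkfb4 total in WT M-CSF to 97.1% ± 1.39 in WT IFNg/LPS and 29.3% ± 6.53 in WT IL-4. For the lactate carriers, Slc16a1 went from 30.8% ± 7.45 in WT M-CSF to 2.42% ± 0.16 in WT IFNg/LPS and 63.1% ± 0.70 in WT IL-4. The lactate carriers thus changed order between the stimuli. Egln3 went from 1.84% ± 0.64 of the EGLN pair in WT M-CSF to 32.3% ± 7.63 in WT IFNg/LPS, and Hif1a from 94.5% ± 1.95 of the HIF alpha pair to 99.9% ± 0.020.

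**Figure D2:**
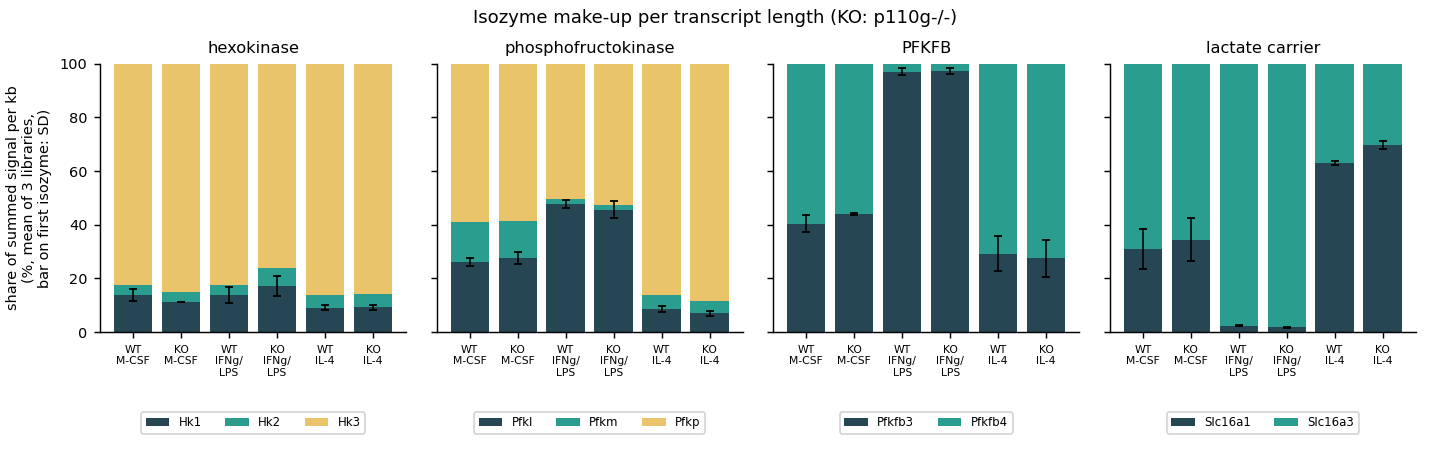
Share of the family's summed signal per kb of transcript (y axis, %, mean of 3 libraries) for hexokinases, phosphofructokinases, PFKFB enzymes and lactate carriers in the 6 groups (x axis; KO: p110g-/-), with SD bars on the lowest segment of each stack. Pfkfb3 and Slc16a3 fill nearly all of their stacks under IFNg/LPS, and Pfkp and Slc16a1 are the larger under IL-4.

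Under IFNg/LPS 4 members were higher in p110g-/- than in WT cells and none was lower, where 14.7% of all genes were called (6.94% higher, 7.79% lower). At 4 of 36 the share of members called was not above that background. The median difference of the members was 0.29 on the log2 scale, against 0.00056 over all genes. Hk2 held 7101, 5225 and 5534 in WT and 11871, 9695 and 9376 in the p110g-/- libraries, groups that did not overlap. Its difference was 0.80 ± 0.17 (limma adjusted p = 0.0054), and it passed in 14 of 14 alternatives. Without the library labelled p110g-/- IFNg/LPS 1 it was 0.69 (adjusted p = 0.020). The Hk2 call thus held in each alternative run. Pfkm held 279, 332 and 365 in WT and 394, 468 and 439.5 in p110g-/- cells, also without overlap. Its difference was 0.42 ± 0.10 (limma adjusted p = 0.0081), and 0.49 without that library (adjusted p = 0.0054).

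Pfkp held 16164, 12625 and 11364 in WT and 21104, 17007 and 16563 in p110g-/- cells, a difference of 0.45 ± 0.12 (limma adjusted p = 0.015). Egln1 held 5159.8, 4459 and 4629 in WT and 8461, 5329.6 and 6348 in p110g-/- cells, a difference of 0.48 ± 0.13 (limma adjusted p = 0.025). Neither pair of groups overlapped, though for both genes the highest WT library came close to the lowest p110g-/- one, and both calls passed in 10 of 14 alternatives. Without the library labelled p110g-/- IFNg/LPS 1, Pfkp stood at 0.34 (adjusted p = 0.058) and Egln1 at 0.30 (adjusted p = 0.083), and 2 members were called, against 16.0% of all genes. Without WT IFNg/LPS library 2 or 3, Pfkp (limma adjusted p = 0.060 and 0.075) and Egln1 (0.089 and 0.071) also missed the threshold. Without WT IFNg/LPS library 1, 10 members were called, all higher, against 17.5% of all genes (7.42% higher, 10.1% lower). In a limma fit of the 6 IFNg/LPS libraries alone Hk2 stayed called, while Pfkm (adjusted p = 0.13), Pfkp (0.15) and Egln1 (0.15) did not.

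With the library number as a block the members called under IFNg/LPS were 6, adding P4ha2 (1.46, limma adjusted p = 0.00039) and Slc2a3 (0.58, adjusted p = 0.0049). As 19.0% of all genes were called in that fit, 6 of 36 is not above the background. Without the block neither passed, and without the library labelled p110g-/- IFNg/LPS 1 as well P4ha2 stood at 1.08 (limma adjusted p = 0.25) and Slc2a3 at 0.26 (adjusted p = 0.54). With libraries 2 and 3 only they stood at 1.55 (adjusted p = 0.0054) and 0.37 (adjusted p = 0.029). P4ha2 held 2916, 1111 and 1052 in WT and 7021, 3504 and 2881 in p110g-/- cells. Library 1 was the highest in each genotype, and every p110g-/- value exceeded the WT value of the same number.

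**Figure D3:**
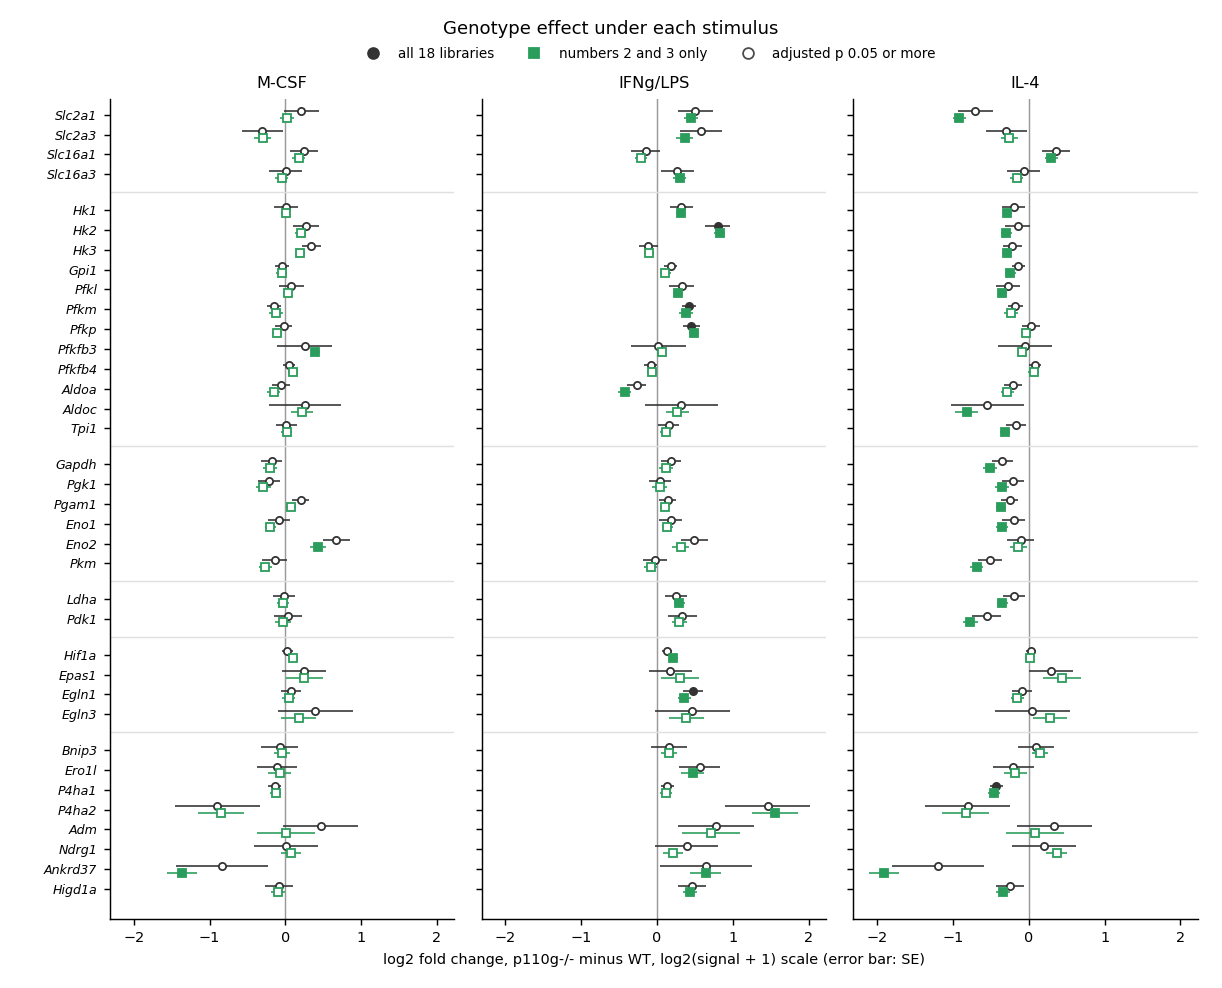
Genotype differences (x axis, p110g-/- minus WT, log2(signal + 1) scale, bar: SE) of the 36 members in M-CSF, IFNg/LPS and IL-4, from all 18 libraries (circles) and from libraries 2 and 3 of each group (squares). Filled marks had an adjusted p under 0.05. Hk2, Pfkm, Pfkp and Egln1 are filled in both fits under IFNg/LPS, and P4ha1 in both under IL-4.

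Under IL-4 the only member called between genotypes was P4ha1, which was lower in p110g-/- cells, against 3.33% of all genes called (1.34% higher, 1.99% lower). It held 3086, 3117 and 3286 in WT and 2401, 2241 and 2417 in p110g-/- cells, groups that did not overlap, for a difference of -0.43 ± 0.090 (limma adjusted p = 0.014). The limma call ended without WT IL-4 library 2 (adjusted p = 0.051) or 3 (0.081), or without p110g-/- IL-4 library 2 (0.080). The block added Pkm (-0.51, limma adjusted p = 0.029) and P4ha2 (-0.81, adjusted p = 0.043) as lower. Slc2a1 held 2663, 2806 and 2816 in WT and 2179.6, 1368 and 1622 in p110g-/- IL-4 cells. These groups did not overlap, but the difference of -0.71 ± 0.23 did not pass (limma adjusted p = 0.12).

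In M-CSF alone limma called no member between genotypes, where 2.34% of all genes were called (1.06% higher, 1.27% lower). At an unadjusted p under 0.05 there were 2 of the 36 members, against 2057 of 15627 genes, and edgeR on the recovered reads called 0 members. The difference of Eno2 was 0.67 ± 0.18, at 1616, 1254 and 1149 in p110g-/- and 725, 914 and 868 in WT cells (limma adjusted p = 0.065). With the block P4ha2 was called as lower (-0.90, limma adjusted p = 0.030).

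The interaction asks whether the genotype difference under a stimulus departs from that in M-CSF. For IFNg/LPS it was called for 1 member, Pfkm (0.57 ± 0.14, limma adjusted p = 0.039), against 2.44% of all genes (1.02% higher, 1.42% lower). Pfkm held 665, 643 and 665 in WT M-CSF and 578, 597 and 603 in p110g-/- M-CSF. WT was thus the higher in M-CSF and the lower in IFNg/LPS, and the fall of Pfkm with IFNg/LPS was -0.45 ± 0.10 in p110g-/- cells against -1.02 ± 0.10 in WT. The limma call passed in 10 of 20 alternatives, in a range of adjusted p from 0.022 to 0.095. It ended without any single M-CSF library, without WT IFNg/LPS library 2 and without p110g-/- IFNg/LPS library 2 or 3. The block added Hk2 (0.53, limma adjusted p = 0.023), Slc2a3 (0.88, 0.012) and P4ha2 (2.36, 0.00088). For IL-4 limma called 0 members and 0.00% of all genes (0.00% higher, 0.00% lower), with 6 members and 1156 genes at an unadjusted p under 0.05, and edgeR called 0 members.

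**Figure D4:**
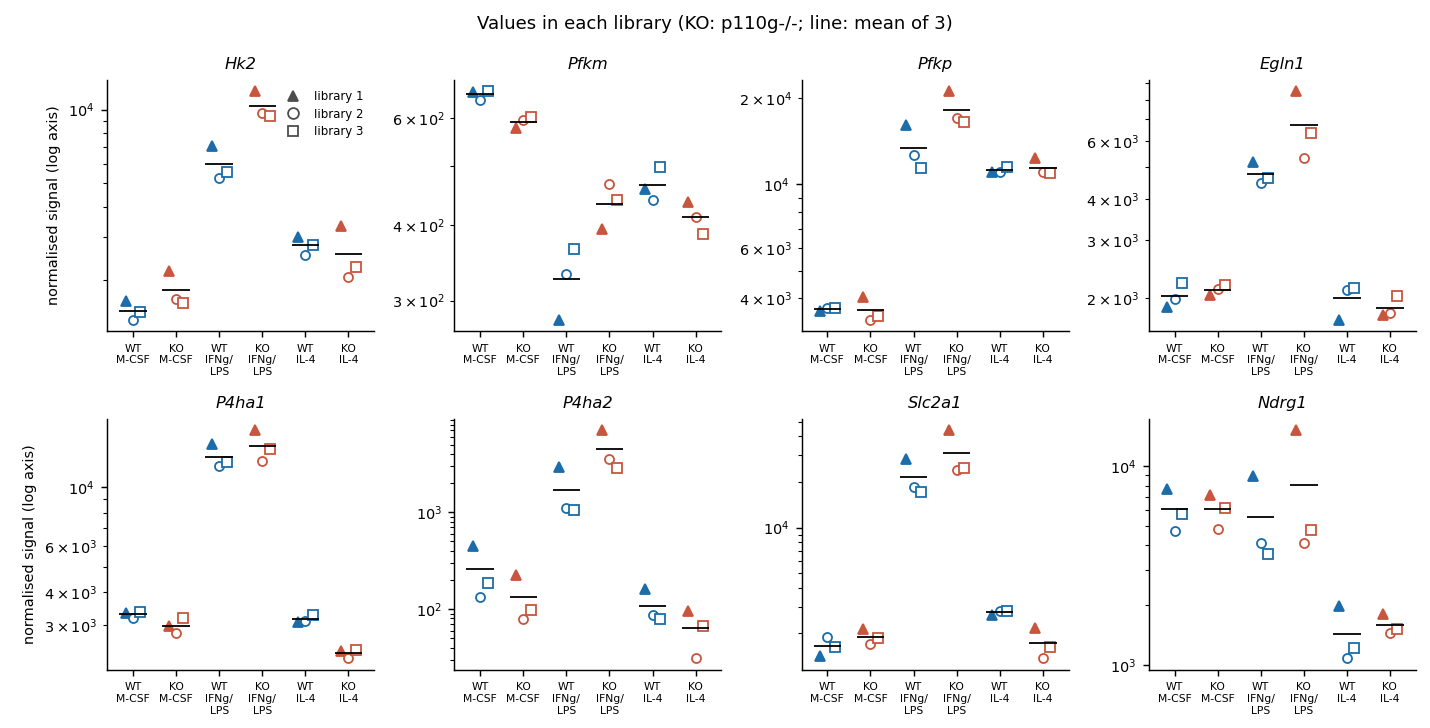
Normalised signal (y axis, log scale) of Hk2, Pfkm, Pfkp, Egln1, P4ha1, P4ha2, Slc2a1 and Ndrg1 in each library of the 6 groups (x axis; KO: p110g-/-; filled triangles: library 1, open circles: library 2, open squares: library 3, line: mean of 3). Under IFNg/LPS library 1 is the highest of its group in both genotypes for 7 of the 8 genes, and for Pfkm it is the lowest.

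Libraries numbered 1 stood apart for these genes under IFNg/LPS. Library 1 was the highest of its group for 30 of 36 members in WT and 31 of 36 in p110g-/- cells, against 39.4% and 38.4% of all genes tested. Its median difference from libraries 2 and 3 was 0.42 and 0.52 on the log2 scale, against -0.0086 and 0.0013 over all genes. In p110g-/- IL-4 cells library 1 was the highest for 28 of 36 members, with a median difference of 0.18. It was the highest for 13 of 36 in WT M-CSF, 20 of 36 in p110g-/- M-CSF and 14 of 36 in WT IL-4, where the medians were -0.07, 0.07 and -0.05.

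Ndrg1 in library 1 was 2.32 times the mean of libraries 2 and 3 in WT IFNg/LPS and 3.40 times in p110g-/- IFNg/LPS cells. Pfkfb3 was 2.58 and 2.34 times, Egln3 2.05 and 2.41 times, and P4ha2 2.70 and 2.20 times as high. The 4 members that fell with IFNg/LPS did not share a direction. On the log2 scale library 1 differed from the other two by -0.17 for Pfkfb4, -0.32 for Pfkm, -0.38 for Eno2 and 0.41 for Epas1 in WT. In p110g-/- cells these differences were -0.23, -0.20, 0.15 and 0.038. Library 1 also held the highest neutrophil marker sum of each group, as given above in ranges, and was the highest for 5 of 8 markers in WT IFNg/LPS, 6 of 8 in p110g-/- IFNg/LPS and 8 of 8 in WT M-CSF and WT IL-4. Neutrophil markers were not alone in this. Its B cell marker sum was the highest in each group, and its dendritic cell sum in each but WT M-CSF. The fibroblast sum was the highest in each but p110g-/- IFNg/LPS and IL-4. The macrophage sum was the highest in each but p110g-/- M-CSF and IL-4, where it was the lowest. Mast cell markers had library 1 highest in WT IL-4 alone. T and NK cell markers, with sums of 38.5 at most, had it highest in WT IL-4 and both IFNg/LPS groups. The part of these markers in the pattern was not tested.

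**Figure D5:**
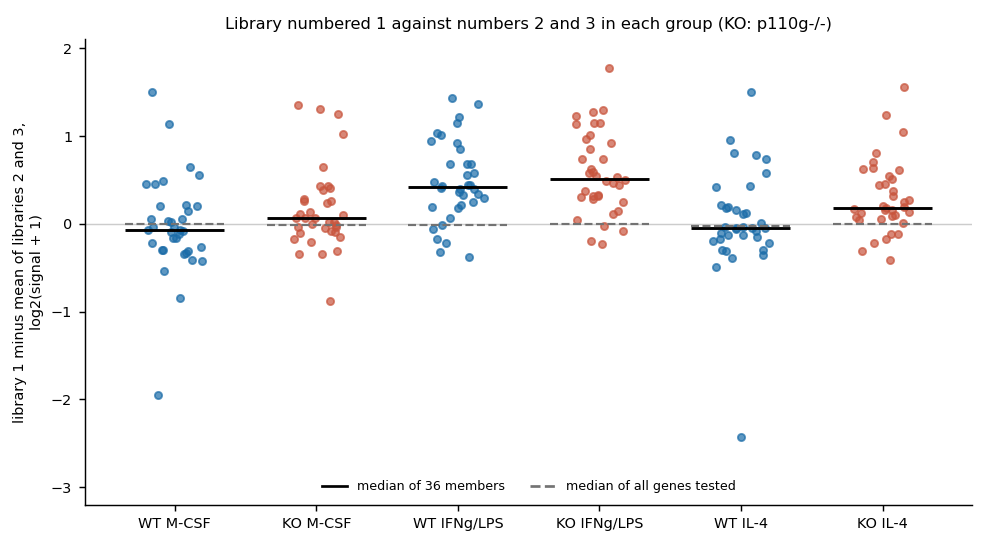
Difference of library 1 from the mean of libraries 2 and 3 (y axis, log2(signal + 1)) for the 36 members (points) in each group (x axis; KO: p110g-/-), with the median of the members (solid) and of all genes tested (dashed). The solid line is at 0.42 and 0.52 in the IFNg/LPS groups, while the dashed line stays near 0 in every group.

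With libraries 2 and 3 alone, more members passed between genotypes. Under IFNg/LPS 15 were higher and 1 lower, against 27.1% of all genes, and the 4 members called with all libraries were among them. The added members were Hk1, Pfkl, Ldha, Slc2a1, Slc2a3, Slc16a3, Hif1a, Ero1l, P4ha2, Ankrd37 and Higd1a as higher, by 0.21 (Hif1a) to 1.55 (P4ha2) on the log2 scale, and Aldoa as lower (-0.43, limma adjusted p = 0.0039). Under IL-4 1 was higher and 18 lower, against 15% of all genes, with P4ha1 again among them. Ankrd37 (-1.91), Slc2a1 (-0.92), Pdk1 (-0.77), Pkm (-0.69) and Gapdh (-0.51) were among the lower, and Slc16a1 (0.30) was higher. In this smaller set most members called were higher in p110g-/- cells under IFNg/LPS and lower under IL-4. The set leaves out the library seen to stand apart for these same members, and with it the spread it adds within groups. Only libraries 2 and 3 of each group remain, so the larger counts are no separate support for a genotype difference. The interaction was then called for 10 members under IFNg/LPS, against 11.2% of all genes, and for 8 under IL-4, all lower, against 2.53%. Among them were Ankrd37 (2.01) for IFNg/LPS and Slc2a1 (-0.94) for IL-4.

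Other genes of these pathways, taken from lists that do not hold the members, moved in both directions with IFNg/LPS. Their counts are to be read against the 73.8% of all genes called in WT (36.3% higher, 37.5% lower). Of 27 tested genes at the branches of glycolysis, 8 rose and 13 fell in WT, with a median of -0.25. Ldhb, the lactate dehydrogenase subunit favoured in oxidative tissue, went from 894, 961 and 929 to 97.4, 105 and 104 (-3.17 ± 0.10). Slc2a6, a lysosomal hexose carrier, went from 1196, 975 and 826 to 21189.9, 17424 and 15439 (4.18 ± 0.17). These genes thus went opposite ways, and Pdk3, a relative of Pdk1, rose by 1.69 ± 0.084. Of 8 pentose phosphate genes 3 rose and 4 fell, with G6pdx, the entry enzyme, at 1.24 ± 0.10 and Pgls, the next enzyme, at -1.82 ± 0.13. In the HIF control list 11 of 13 rose and 1 fell, among them Cul2 (1.42 ± 0.084) and Vhl (1.00 ± 0.10), parts of the ligase that marks HIF alpha for degradation. Cited2, a competitor of HIF for its coactivator, was the 1 that fell (-1.01 ± 0.12). In a wider hypoxia list 12 of 24 rose and 5 fell, with Mif, a cytokine, at 2.28 ± 0.13 and Zfp395 at -3.18 ± 0.15.

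Between genotypes under IFNg/LPS, 4 of the 27 branch genes were higher and 4 lower in p110g-/- cells, to be read against the 14.7% of all genes called. Mpc1, a subunit of the mitochondrial pyruvate carrier, was lower at 2687, 3786 and 3747 against 4466, 6528 and 6044 in WT (-0.74 ± 0.15, limma adjusted p = 0.0047). It was also lower in M-CSF (-0.75 ± 0.15) and in IL-4 (-0.67 ± 0.15). Ldhb was higher in p110g-/- cells in M-CSF (0.58 ± 0.10) and IL-4 (0.57 ± 0.10). In the wider hypoxia list 3 of 24 genes (12.5%) were higher under IFNg/LPS and none was lower. Of all genes 14.7% were called (6.94% higher, 7.79% lower), so the share called was not above that background. The 3 were Zfp395, at 889, 701 and 559 against 281, 338 and 284 (1.23 ± 0.15), Mxi1, a MYC antagonist (0.87 ± 0.15), and Bhlhe40, a transcriptional repressor (0.80 ± 0.22). The interaction of genotype and IFNg/LPS was called for 3 of the 24 (12.5%), all higher. Of all genes it was called for 2.44% (1.02% higher, 1.42% lower). It was called for 0 of the 27 branch genes, 0 of the 8 pentose phosphate genes and 0 of the 13 HIF control genes. Of the 13 HIF control genes Tceb1, elongin C, was lower (-0.47 ± 0.077, limma adjusted p = 0.00082), and of the 8 pentose phosphate genes Rpe was lower (-0.23 ± 0.069). With IL-4 in WT, 8 branch genes rose and 8 fell, 3 pentose phosphate genes rose and none fell, 4 HIF control genes rose and 4 fell, and 4 of the wider hypoxia list rose and 6 fell. Of all genes 43.9% were called there (22.9% higher, 21.1% lower). Tfrc, the transferrin receptor, rose by 2.51 ± 0.15, Bhlhe40 by 2.64 ± 0.22, and Tkt, a transketolase of the pentose phosphate pathway, by 0.93 ± 0.12.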

How the data were processed

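Gene expression was measured by RNA sequencing (Illumina HiSeq, total RNA) in 18 libraries, 3 in each of 6 groups. The submitters' processing notes name CASAVA 1.8.2, Bowtie2, DESeq and the mm9 build, while the role of each tool, the annotation, the strand setting and the counting method are not given in the sources used here. The deposited values are a signal made by the authors, in which low values of each library were whole multiples of 1 step (100% within 0.1 of a whole number), so they are counts of reads that were divided by a factor for each library. Whole reads recovered this way gave 40.1 to 69.6 M reads per library, and 3 reads, taken as the floor of detection, equal a signal of 2.15 to 4.74. Floors cover counting error only.

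Genes entered the test where 3 or more libraries had a signal of 10 or more (15627 of 16474, all 36 members among them). The test was limma 3.58.1 in R 4.3.3 on log2(signal + 1), with 6 group means, a trended and robust prior and 12 residual degrees of freedom, and p-values were adjusted by Benjamini-Hochberg over all genes tested, with calls at 0.05. Fold changes on this scale understate the change of low genes. edgeR 4.0.16 (quasi-likelihood, recovered reads) and the other settings in the closing section were alternatives, and the procedure was tested on simulated data.

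Library numbers are shared by the groups. Same-numbered libraries deviated together, with every correlation over 0.1, in 4 of 7 comparisons, namely genotype under IFNg/LPS (0.26 to 0.55), IFNg/LPS in WT (0.16 to 0.26) and IL-4 in WT (0.18 to 0.46) and in p110g-/- cells (0.19 to 0.40). Correlations in the remaining comparisons were positive too, with only number 3 under 0.1. They were 0.055 to 0.47 for genotype in M-CSF and 0.053 to 0.43 for genotype in IL-4. For IFNg/LPS in p110g-/- cells they were 0.028 to 0.17. The labels do not say what a number marks, so the block stands beside results where it changed a call.

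The members and gene lists were chosen with earlier results of these data known. All members are named with their levels or fold changes. Library values are given for members called between genotypes or in an interaction, for the 3 largest changes with IFNg/LPS and the 2 largest with IL-4 in WT per role, and for isozyme families, and up to 3 genes by smallest p from each other list. Transcript lengths came from GENCODE annotation and promoters from RefSeq, both on GRCm38.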

Additional observations from a re-analysis of the deposited data

Results flagged for a closer look

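The genotype difference of Pfkm, the muscle phosphofructokinase, differed between M-CSF and IFNg/LPS by a test of the difference itself, with an interaction of 0.57 on the log2 scale (limma, Benjamini-Hochberg adjusted p = 0.039). It was the only one of the 36 members to do so in the fit of all libraries, where 2.44% of all genes were called. The call ended without any single M-CSF library, without some of the IFNg/LPS libraries and in the fit of only the libraries compared.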

How the results depend on the processing

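Of 2684 values under an alternative, 2507 kept their direction and their side of the threshold, 66 lost a call, 104 gained one and 7 changed sign. The replicate block called 1 member between genotypes in M-CSF, 3 in IL-4 and 4 in the IFNg/LPS interaction (0, 1 and 1 without it), with 3.55%, 4.88% and 4.58% of all genes called, raised the IFNg/LPS genotype count from 4 to 6 and ended no member's call. Every library correlated best with its own number in 3 of the 7 comparisons. Fitting only the libraries compared gave 1 member under IFNg/LPS, 2 under IL-4 and 0 in the IFNg/LPS interaction, against 4.94%, 2.69% and 1.39% of all genes. Libraries numbered 2 and 3 alone gave 3 in M-CSF, 16 in IFNg/LPS, 19 in IL-4, and 10 and 8 in the IFNg/LPS and IL-4 interactions, against 4.48%, 27.1%, 15%, 11.2% and 2.53% of all genes. Leaving out 1 library at a time gave 0 to 0 members between genotypes in M-CSF, 2 to 10 in IFNg/LPS (2 without WT library 2 or 3 or the library labelled p110g-/- 1, 10 without WT library 1), 0 to 3 in IL-4 (0 without WT library 2 or 3 or p110g-/- library 2, 3 without p110g-/- library 1), 0 to 2 in the IFNg/LPS interaction and 0 to 1 in that of IL-4. For the stimuli it gave 31 to 32 (IFNg/LPS in WT), 32 to 32 (in p110g-/-), 18 to 21 (IL-4 in WT) and 16 to 19 (in p110g-/-). Of all genes, these runs called 1.53% to 2.15% between genotypes in M-CSF, 9.38% to 17.5% in IFNg/LPS and 1.52% to 4.65% in IL-4. In the interactions they called 1.17% to 4.11% (IFNg/LPS) and 0.00% to 0.57% (IL-4). With IFNg/LPS they called 69.9% to 71.6% in WT and 69.3% to 71.0% in p110g-/- cells. With IL-4 they called 35.8% to 42.6% in WT and 37.4% to 39.1% in p110g-/- cells. Signs changed without 1 library for Ankrd37 with IL-4 in WT (range -0.19, without WT M-CSF 1, to 1.26), Ndrg1 with IFNg/LPS in WT (-0.62 to 0.031, without WT IFNg/LPS 3), Pfkfb3 in the IFNg/LPS interaction (-0.65 to 0.22, without WT IFNg/LPS 1), Slc2a3 with IFNg/LPS in p110g-/- cells (-0.0032, without library 1, to 0.50) and Slc16a1 there (-0.21, without p110g-/- IFNg/LPS 1, to 0.19, with -0.032 without p110g-/- M-CSF 1 and -0.28 with numbers 2 and 3 only). The cause was not tested. A pseudocount of 10, no filter on low values, limma without trend and robust, TMM scaling and edgeR kept each count within 1.5 times.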
